A study of Homo sapiens with 6 samples.

Results

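The genes described here were 10 genes of the YAP/TEAD pathway, chosen by symbol out of the 25442 genes of a table of expression levels in FPKM, which counts sequenced fragments per length of transcript and per size of library. They were the coactivators YAP1 and WWTR1 (the gene for TAZ), the DNA-binding partners TEAD1 and TEAD4, and CTGF (now CCN2), CYR61 (now CCN1), ANKRD1, AMOTL2, AJUBA and LATS2, 6 genes widely used as readouts of the pathway. RNA-seq had been run on YAPC, a human pancreatic ductal adenocarcinoma (PDA) cell line of the classical subtype, to ask what the Hedgehog pathway transcription factor GLI2 does to gene expression. YAPC-iGLI2 cells carried a GLI2 cDNA in the doxycycline (Dox)-inducible retroviral plasmid pRetroX-Tight-Puro, and YAPC-iEV cells carried the same plasmid empty. Both arms carried the reverse tetracycline transactivator (rtTA) and were cultured with Dox in full growth media for 6 days, so the arms differed in the insert and not in Dox. There were 3 libraries per arm, and the values describe forced GLI2 expression from a plasmid in 1 cell line.

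GLI2 was listed at 0.466, 0.412 and 0.344 FPKM in YAPC-iEV replicates 1, 2 and 3 and at 94.5, 207 and 195 FPKM in YAPC-iGLI2 replicates 1, 2 and 3. The arms were far apart, and YAPC-iGLI2 replicate 1 had the lowest GLI2 of its arm. Fragments per library are unknown, so no counting interval was given. The summed FPKM was lower in every YAPC-iGLI2 library than in every YAPC-iEV library, and the single small RNA gene MIR4461 took 42.6 to 45.4% of it in YAPC-iEV and 35.7 to 37.7% in YAPC-iGLI2. The summed FPKM of 8 ductal and epithelial markers ranged from 1968 to 2101 in YAPC-iEV and from 1777 to 2057 in YAPC-iGLI2. KRT7, KRT19 and EPCAM were high in all 6 libraries. KRT8 and KRT18 were among 5407 genes listed at 0 in all 6, and whether such a 0 means no expression was not tested. They added nothing to the sum, which holds the other 6 markers. That sum is carried by the most abundant markers, and 3 of the 6 tested were called: EPCAM and CDH1 were higher by 0.37 each on the log2(FPKM + 1) scale (limma adjusted p = 0.00709 and 0.0169), and MUC1 fell from 21.7 ± 2.08 to 3.61 ± 0.283 FPKM (SD, n = 3, limma adjusted p = 1.31e-04), 6.00-fold lower. Of 10 fibroblast markers, 1 reached a mean of 1 FPKM (COL1A1, 1.41 ± 0.127 in YAPC-iEV and 2.69 ± 0.365 in YAPC-iGLI2, SD, n = 3), the summed level was 2.35 to 2.91 against 3.09 to 4.04 FPKM, and DCN was listed at 0 throughout. Of 7 blood and endothelial markers, LYZ and CD68 reached that level, with sums of 13.7 to 17.9 against 8.90 to 17.2 FPKM. The cultures were of 1 cell line, so no fibroblast, blood or endothelial cells were part of the design. The source of these low marker levels was not tested. In bulk RNA, fewer cells expressing a gene and less RNA per cell cannot be told apart.

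YAP and TAZ are transcriptional coactivators that have no DNA-binding domain and reach promoters and enhancers through the TEAD factors. In the Hippo cascade the kinases MST1 and MST2, with the scaffold SAV1, activate LATS1 and LATS2, which phosphorylate YAP and TAZ so that these stay in the cytoplasm or are degraded. Much of the control is therefore on the protein and its location, which mRNA levels do not show. Several targets feed back on the cascade, among them the YAP-binding protein AMOTL2 and LATS2 itself, and YAP activity is known in pancreatic cancer for its role in acinar-to-ductal metaplasia and tumour growth.

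All 10 genes passed the filter of a mean of 1 FPKM over the 6 libraries. At a limma adjusted p under 0.05, WWTR1 was higher in YAPC-iGLI2, TEAD4, CYR61, ANKRD1, AMOTL2, AJUBA and LATS2 were lower, and YAP1, TEAD1 and CTGF did not pass. That is 7 of 10, against 2742 of 12493 genes tested, or 21.9%. The 10 genes were chosen with earlier results of these data known, so the shares are descriptive and do not test the pathway. By direction, 1 of 10 was higher against 10.1% of genes tested, and 6 of 10 were lower against 11.8%. Of the 2742 calls 46.0% were higher in YAPC-iGLI2, a share that became 59.3% when small RNA genes were left out and the libraries rescaled. The median difference over the 10 genes was −0.62 on the log2(FPKM + 1) scale and −0.86 over the 6 target genes, beside −0.01 over all genes tested. Apart from the alternative with pseudocount 0.1, every log2 difference given is on that scale, which understates changes at low levels. The 2 arms did not overlap for 7 of the 10 genes, 1 with the YAPC-iGLI2 libraries above and 6 with them below, against 42.0% of genes tested (19.2% above and 22.8% below). For all 10 genes the direction was the same under every rescaling of the libraries that was tried. The labels do not state that replicates were separate cultures, so the p-values measure only the spread between these libraries.

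**Figure D1:**
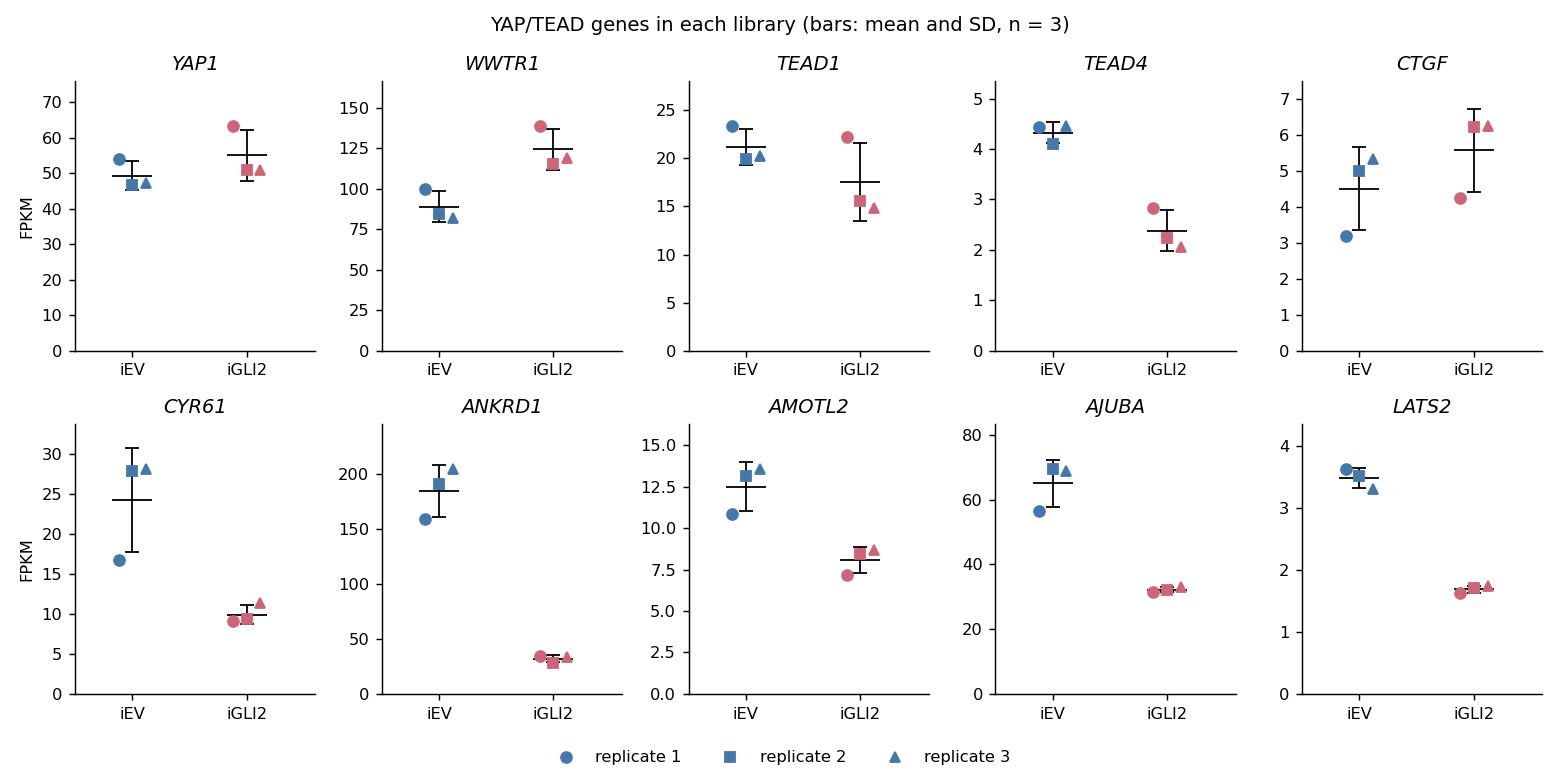
FPKM of the 10 genes in each of the 6 libraries, 1 panel per gene with its own linear axis from 0, YAPC-iEV in blue and YAPC-iGLI2 in red; marker shape gives the replicate number and bars the mean and SD (n = 3). The arms are apart for 7 genes, with ANKRD1 at 159 to 205 FPKM in YAPC-iEV and 28.3 to 34.5 FPKM in YAPC-iGLI2, and they overlap for YAP1, TEAD1 and CTGF.

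The coactivators were both expressed, and of the pair only the WWTR1 difference passed the test. YAP1 (ENSG00000137693, chr11:101981192-102104154 on the plus strand of hg19) measured 53.9, 46.7 and 47.2 FPKM in YAPC-iEV replicates 1, 2 and 3 and 63.3, 50.8 and 50.9 FPKM in YAPC-iGLI2 replicates 1, 2 and 3. Replicate 1 was the highest in both arms and the ranges overlapped. The means were 49.3 ± 4.03 and 55.0 ± 7.19 FPKM (SD, n = 3), and the difference was 0.15 with a 95% interval from −0.12 to 0.42 (SE 0.11, limma adjusted p = 0.391). WWTR1 (ENSG00000018408, chr3:149235022-149421060 on the minus strand) measured 99.8, 84.6 and 82.2 FPKM in YAPC-iEV and 139, 115 and 119 FPKM in YAPC-iGLI2. Every YAPC-iGLI2 library lay above every YAPC-iEV library. The means were 88.9 ± 9.55 and 124 ± 12.6 FPKM (SD, n = 3), 1.40-fold higher with GLI2, and the log2 difference was 0.48 (SE 0.11, 95% interval 0.21 to 0.75, limma adjusted p = 0.0281). This call did not hold without YAPC-iEV replicate 2 (limma adjusted p = 0.108), YAPC-iEV replicate 3 (0.102), YAPC-iGLI2 replicate 2 (0.0625) or YAPC-iGLI2 replicate 3 (0.0728), while the difference stayed between 0.40 and 0.57. Unless the TruSeq libraries kept strand, reads of the antisense RNA WWTR1-AS1, which shares exon positions with WWTR1, cannot be told apart from its own. WWTR1-AS1 was listed at 0.283 to 0.475 FPKM in YAPC-iEV and 0.291 to 0.619 FPKM in YAPC-iGLI2. YAP1 overlaps the exons of 2 antisense RNAs, whose levels were not analysed here.

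Replicate 1 was the highest for both coactivators in both arms, and a ratio taken within each library does not depend on how that library was scaled. WWTR1 over YAP1 was 1.85, 1.81 and 1.74 in YAPC-iEV replicates 1, 2 and 3 and 2.19, 2.27 and 2.34 in YAPC-iGLI2. The arms did not overlap, and the SDs of 0.0554 and 0.0718 (n = 3) were small beside the means of 1.80 and 2.27. The summed FPKM of the pair ran from 129 to 154 in YAPC-iEV and from 166 to 202 in YAPC-iGLI2. These ratios, and the TEAD shares and target ratios given later, were chosen after their values were seen and were not tested.

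TEAD1 and TEAD4 encode 2 of the 4 human TEAD proteins, which share a DNA-binding domain that reads the MCAT element and a domain that holds YAP or TAZ. TEAD1 (ENSG00000187079, chr11:12695969-12966284 on the plus strand) measured 23.4, 20.0 and 20.2 FPKM in YAPC-iEV and 22.2, 15.5 and 14.8 FPKM in YAPC-iGLI2. YAPC-iGLI2 replicate 1, which had the least GLI2 of its arm, lay among the YAPC-iEV libraries, and replicates 2 and 3 lay below all of them. Replicate 1 was also the highest in YAPC-iEV, as it was for YAP1 and WWTR1 in both arms. A link between TEAD1 and the level of GLI2 was not tested. Means were 21.2 ± 1.89 and 17.5 ± 4.08 FPKM (SD, n = 3), and the log2 difference was −0.28 (SE 0.16, 95% interval −0.67 to 0.11, limma adjusted p = 0.273). Without YAPC-iGLI2 replicate 1 the difference was −0.45 and passed the test (limma adjusted p = 0.0179). TEAD4 (ENSG00000197905, chr12:3068478-3149842 on the plus strand) measured 4.43, 4.10 and 4.46 FPKM in YAPC-iEV and 2.84, 2.24 and 2.07 FPKM in YAPC-iGLI2. The arms did not overlap, and the mean fell from 4.33 ± 0.201 to 2.38 ± 0.405 FPKM (SD, n = 3), 1.82-fold lower. On the log2(FPKM + 1) scale the difference was −0.66 (SE 0.10, 95% interval −0.91 to −0.41, limma adjusted p = 0.00808). With pseudocount 0.1 it was −0.85. TEAD4 passed in each of the 14 alternatives in which it was tested.

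The list of other TEADs and cofactors held 6 genes, of which 3 were tested and TEAD2 was called. TEAD2, a TEAD best known from embryonic development, measured 3.96, 5.11 and 5.15 FPKM in YAPC-iEV and 7.30, 8.18 and 7.90 FPKM in YAPC-iGLI2. It rose from a mean of 4.74 ± 0.678 to 7.79 ± 0.454 FPKM (SD, n = 3), a log2 difference of 0.62 (SE 0.10, limma adjusted p = 0.0106), opposite in direction to TEAD4. The call did not hold without YAPC-iGLI2 replicate 2 (limma adjusted p = 0.0532), which left 0 calls in the list. TEAD3 measured 6.86 ± 1.32 and 6.22 ± 0.331 FPKM (SD, n = 3), a difference of −0.11 with a 95% interval from −0.41 to 0.19. VGLL4, a cofactor that competes with YAP for the TEADs, measured 23.6 ± 2.60 and 22.7 ± 4.02 FPKM (SD, n = 3), with an interval of the log2 difference from −0.40 to 0.29. VGLL1, VGLL2 and VGLL3 were below the filter, VGLL1 at a mean of 0.255 FPKM in YAPC-iEV and 0.0200 FPKM in YAPC-iGLI2.

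Within a library, the 4 TEAD genes were represented in different proportions in the 2 arms. TEAD2 made up 9.85, 14.5 and 14.3% of the summed TEAD FPKM in YAPC-iEV replicates 1, 2 and 3 and 18.8, 25.4 and 25.8% in YAPC-iGLI2. The TEAD4 share was 11.0, 11.6 and 12.4% in YAPC-iEV against 7.30, 6.96 and 6.74% in YAPC-iGLI2. Neither share overlapped between the arms. TEAD1 held the largest share in all 6 libraries, at 56.3 to 58.2% in YAPC-iEV and 48.2 to 57.1% in YAPC-iGLI2, and the TEAD3 share ran from 17.0 to 20.9% and from 16.8 to 19.4%. The summed TEAD FPKM was 35.3 to 40.1 in YAPC-iEV and 30.7 to 38.9 in YAPC-iGLI2, which overlap.

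**Figure D2:**
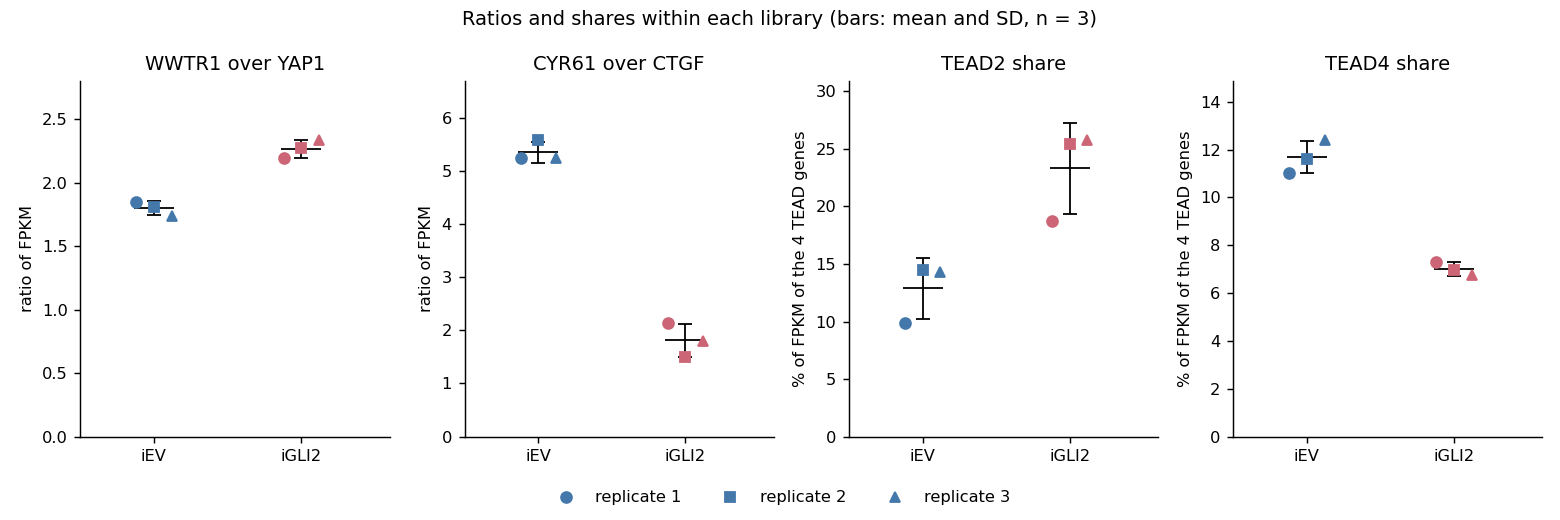
Ratios and shares computed within each library from FPKM, with a linear axis from 0; markers are the 3 replicates of each arm and bars the mean and SD (n = 3). WWTR1 over YAP1 and the TEAD2 share are higher in every YAPC-iGLI2 library, and CYR61 over CTGF (1.50 to 2.13 against 5.24 to 5.59) and the TEAD4 share are lower.

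CTGF, CYR61 and ANKRD1 are the genes most often measured as YAP/TEAD output, and TEAD sites have been described upstream of several such genes. The sequences below show how the TEAD motif is placed upstream of 4 of the genes reported here, CTGF, which did not pass the test, and ANKRD1, AMOTL2 and AJUBA, which fell. They are the 250 bases before an annotated start, from RefSeq on GRCh38.p14, 5′ to 3′ on the strand of the gene, which is minus for all 4, with the TEAD motif GGAATG or its reverse complement CATTCC in capitals. The windows are chr6:131951373-131951622 for CTGF, chr10:90921088-90921337 for ANKRD1, chr3:134374448-134374697 for the second start of AMOTL2 and chr14:22976843-22977092 for the second start of AJUBA.
CTGF: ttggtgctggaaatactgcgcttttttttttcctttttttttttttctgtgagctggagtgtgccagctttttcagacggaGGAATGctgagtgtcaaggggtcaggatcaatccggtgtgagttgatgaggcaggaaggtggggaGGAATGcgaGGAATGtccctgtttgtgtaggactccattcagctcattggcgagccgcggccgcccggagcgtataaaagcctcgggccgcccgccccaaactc
ANKRD1: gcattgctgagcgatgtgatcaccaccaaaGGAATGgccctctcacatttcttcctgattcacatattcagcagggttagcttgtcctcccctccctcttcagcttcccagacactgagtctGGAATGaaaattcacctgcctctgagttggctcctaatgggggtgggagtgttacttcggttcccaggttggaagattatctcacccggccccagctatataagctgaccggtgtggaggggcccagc
AMOTL2 second start: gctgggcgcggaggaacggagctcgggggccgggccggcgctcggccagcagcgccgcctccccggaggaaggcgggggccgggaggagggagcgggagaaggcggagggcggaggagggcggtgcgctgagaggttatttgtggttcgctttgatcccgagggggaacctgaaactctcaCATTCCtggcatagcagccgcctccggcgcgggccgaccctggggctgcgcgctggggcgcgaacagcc
AJUBA second start: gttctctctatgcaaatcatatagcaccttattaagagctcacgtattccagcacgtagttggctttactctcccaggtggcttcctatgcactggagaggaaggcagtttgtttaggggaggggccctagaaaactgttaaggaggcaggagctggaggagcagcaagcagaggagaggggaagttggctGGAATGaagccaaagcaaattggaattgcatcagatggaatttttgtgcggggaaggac
CTGF held 3 copies, with their first bases 169, 104 and 95 bases before the start, and ANKRD1 held 2, at 220 and 128 bases. AMOTL2 and AJUBA held 1 copy each at the second of their 2 starts, at 69 and 59 bases, and none at the first. YAP1 held 1 copy at 162 bases, and WWTR1 and LATS2 held none. Over the windows of 7 of the 10 genes, with 10 starts among them, the motif was present for 5 genes. Windows for TEAD1, TEAD4 and CYR61 were not used here. Among 35116 RefSeq promoter windows of that length, 11.9% held at least 1 copy on either strand, 0.940% at least 2 and 0.0826% at least 3. These shares are per window, while the 5 above is per gene, and a gene with 2 starts had 2 windows. The GLI motif GACCACCCA, or its reverse complement TGGGTGGTC, was in 0 of the 10 windows and in 0.199% of all windows. A match describes these letters only and not binding.

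ANKRD1 had the largest difference of the 10 genes. It encodes an ankyrin repeat protein first described in heart muscle that acts in the sarcomere and in the nucleus. ANKRD1 (ENSG00000148677, chr10:92671857-92681032 on the minus strand) measured 159, 191 and 205 FPKM in YAPC-iEV replicates 1, 2 and 3 and 34.5, 28.3 and 33.9 FPKM in YAPC-iGLI2. The lowest YAPC-iEV library was far above the highest YAPC-iGLI2 library. The mean fell from 185 ± 23.5 to 32.2 ± 3.43 FPKM (SD, n = 3), 5.74-fold lower, with a log2 difference of −2.48 (SE 0.12, 95% interval −2.79 to −2.18, limma adjusted p = 2.39e-04). Among all 12493 genes tested it had the 47th most negative difference. It passed in all 15 alternatives, with a log2 difference between −2.59 and −2.39.

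CYR61, a secreted matricellular protein of the CCN family that binds integrins, was also lower. CYR61 (ENSG00000142871, chr1:86046444-86049648 on the plus strand) measured 16.7, 27.9 and 28.1 FPKM in YAPC-iEV and 9.06, 9.36 and 11.3 FPKM in YAPC-iGLI2. YAPC-iEV replicate 1 stood below the other two of its arm and still above every YAPC-iGLI2 library. The mean fell from 24.2 ± 6.51 to 9.91 ± 1.23 FPKM (SD, n = 3), 2.44-fold lower, with a log2 difference of −1.18 (SE 0.21, 95% interval −1.70 to −0.66, limma adjusted p = 0.0137). It missed the threshold without YAPC-iEV replicate 2 (limma adjusted p = 0.0598), YAPC-iEV replicate 3 (0.0595) or YAPC-iGLI2 replicate 2 (0.0597), where the log2 difference stayed at or below −1.06.

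CTGF, the CCN family member most often paired with CYR61 as a YAP target, did not pass. CTGF (ENSG00000118523, chr6:132269317-132272518 on the minus strand) measured 3.18, 4.99 and 5.34 FPKM in YAPC-iEV and 4.24, 6.23 and 6.25 FPKM in YAPC-iGLI2. Replicate 1 was the lowest in both arms, and the arms overlapped. The means were 4.51 ± 1.16 and 5.58 ± 1.15 FPKM (SD, n = 3), and the difference of 0.26 had a 95% interval from −0.24 to 0.77 (SE 0.21, limma adjusted p = 0.419). An increase and a small decrease both lie within that interval, and a decrease of the size seen for CYR61 or ANKRD1 does not. With the replicate number as a block the same difference of 0.26 had an SE of 0.05 and passed (limma adjusted p = 0.0320). No label states that a shared replicate number pairs the libraries. The antisense RNA LINC01013, which overlaps a CTGF exon, was listed at 0 in all 6 libraries. Whether a listed 0 means that it had no reads was not tested. CYR61 over CTGF, taken within each library, was 5.24, 5.59 and 5.25 in YAPC-iEV and 2.13, 1.50 and 1.81 in YAPC-iGLI2. ANKRD1 over CTGF was 49.9, 38.3 and 38.3 in YAPC-iEV and 8.12, 4.54 and 5.43 in YAPC-iGLI2. For both ratios the lowest YAPC-iEV library was above the highest YAPC-iGLI2 library.

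The 3 remaining targets are themselves regulators of the Hippo cascade, and all 3 were lower in YAPC-iGLI2. AMOTL2, a motin that holds YAP at junctions and in the cytoplasm (ENSG00000114019, chr3:134074187-134094259 on the minus strand), measured 10.8, 13.1 and 13.6 FPKM in YAPC-iEV and 7.20, 8.42 and 8.67 FPKM in YAPC-iGLI2. The arms did not overlap, with replicate 1 the lowest in each. The mean fell from 12.5 ± 1.46 to 8.10 ± 0.784 FPKM (SD, n = 3), 1.55-fold lower, with a log2 difference of −0.57 (SE 0.11, 95% interval −0.83 to −0.30, limma adjusted p = 0.0158). The call did not hold without YAPC-iEV replicate 2 (limma adjusted p = 0.0739), YAPC-iEV replicate 3 (0.0700) or YAPC-iGLI2 replicate 2 (0.0582). An exon of AMOTL2 overlaps the pseudogene RPL39P5 on the same strand.

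AJUBA, a LIM domain protein that binds and restrains LATS kinases (ENSG00000129474, chr14:23440383-23451851 on the minus strand), measured 56.6, 69.4 and 69.0 FPKM in YAPC-iEV and 31.4, 32.0 and 33.0 FPKM in YAPC-iGLI2. The YAPC-iGLI2 libraries lay close together and far below the YAPC-iEV libraries. The mean fell from 65.0 ± 7.28 to 32.1 ± 0.787 FPKM (SD, n = 3), 2.02-fold lower, with a log2 difference of −0.99 (SE 0.09, 95% interval −1.22 to −0.76, limma adjusted p = 0.00150). AJUBA passed in all 15 alternatives. The annotation has a second protein-coding gene model over its exons on the same strand, and reads of the pair could be split between them.

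LATS2, a kinase that phosphorylates YAP and TAZ (ENSG00000150457, chr13:21547176-21635722 on the minus strand), was the lowest expressed of the 10 genes. LATS2 measured 3.62, 3.51 and 3.30 FPKM in YAPC-iEV and 1.62, 1.71 and 1.73 FPKM in YAPC-iGLI2. Each arm was tight and the arms were apart. The mean fell from 3.48 ± 0.164 to 1.69 ± 0.0590 FPKM (SD, n = 3), 2.06-fold lower, with a log2 difference of −0.74 (SE 0.07, 95% interval −0.91 to −0.56, limma adjusted p = 0.00156). It passed in all 14 alternatives in which it was tested. The log2(FPKM + 1) scale understates a change at so low a level, and the fold of the means is the larger figure.

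**Figure D3:**
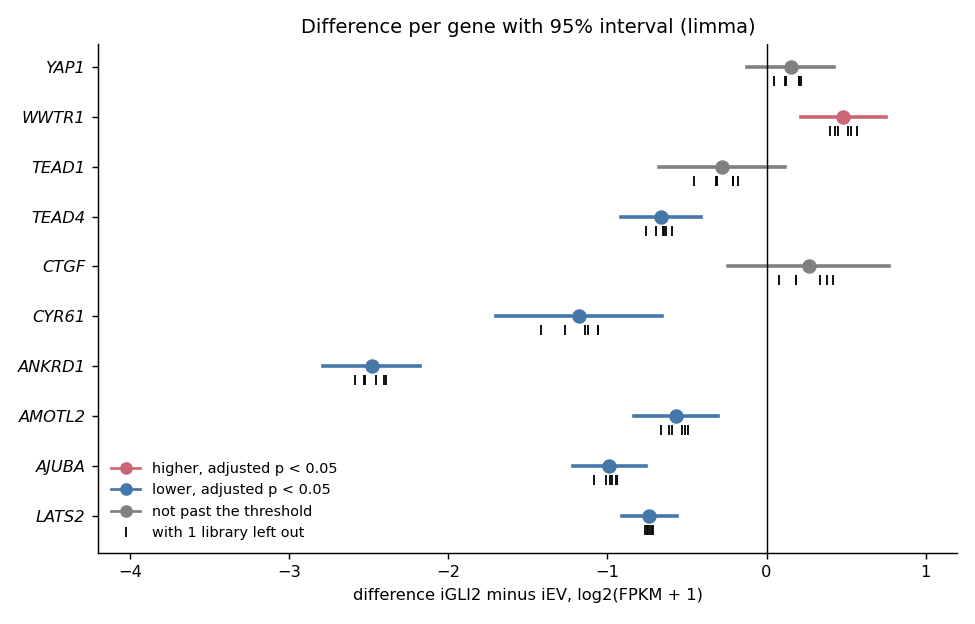
Difference between the arms for the 10 genes on the log2(FPKM + 1) scale, YAPC-iGLI2 minus YAPC-iEV, with 95% intervals from limma (n = 3 per arm) and, as ticks, the difference with 1 library omitted. The 6 genes in blue are below 0 at every tick, ANKRD1 at −2.59 to −2.39, and the intervals of YAP1, TEAD1 and CTGF cross 0.

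Because FPKM is scaled per length, the levels of the 10 genes can be ordered within an arm. In YAPC-iEV the order from the highest mean was ANKRD1, WWTR1, AJUBA, YAP1, CYR61, TEAD1, AMOTL2, CTGF, TEAD4 and LATS2, and the libraries of neighbours overlapped for CYR61 with TEAD1 and for CTGF with TEAD4. In YAPC-iGLI2 the order was WWTR1, YAP1, ANKRD1, AJUBA, TEAD1, CYR61, AMOTL2, CTGF, TEAD4 and LATS2, and only ANKRD1 and AJUBA overlapped. ANKRD1, above both coactivators in YAPC-iEV, stood below both in YAPC-iGLI2.

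Genes upstream of YAP and TAZ were called in both directions. Of 44 genes of the kinase core, its junction and polarity inputs and its opposing phosphatase complex, 41 were tested, 4 were higher and 4 were lower, or 19.5%, near the 21.9% of all genes tested, with a median difference of −0.05 against −0.01. WWC1 (KIBRA), a scaffold that activates LATS, rose from 20.0 ± 0.477 to 44.2 ± 1.98 FPKM (SD, n = 3), a log2 difference of 1.10 (SE 0.06, limma adjusted p = 3.05e-04). Its values were 19.6, 19.9 and 20.6 FPKM in YAPC-iEV and 42.1, 44.6 and 46.0 FPKM in YAPC-iGLI2, with no overlap. AMOTL1, a motin like AMOTL2, rose where AMOTL2 fell, from 10.9 ± 0.771 to 16.0 ± 0.934 FPKM (SD, n = 3), with a log2 difference of 0.51 (limma adjusted p = 0.00680). STRN3, a subunit of the STRIPAK phosphatase complex, and MAP4K3, a kinase that can act beside MST1 and MST2, were higher by 0.32 and 0.39 (limma adjusted p = 0.0270 and 0.0417). SAV1, the scaffold of the MST kinases, measured 35.4, 36.2 and 34.6 FPKM in YAPC-iEV and 22.7, 16.9 and 17.0 FPKM in YAPC-iGLI2, and it fell by 0.89 on the log2 scale (SE 0.12, limma adjusted p = 0.00491). LLGL2, a basolateral polarity protein, fell by 0.72 from 40.0 ± 2.65 to 23.8 ± 0.876 FPKM (SD, n = 3, limma adjusted p = 0.00161). MAP4K5, a kinase of the MAP4K group, fell by 0.44 and LIMD1, a LIM protein of the AJUBA family, by 0.39.

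Of these 8 genes, WWC1, AMOTL1, LLGL2, SAV1 and MAP4K5 still passed whichever single library was omitted, and STRN3, MAP4K3 and LIMD1 did not. The count of the list was 5 without YAPC-iEV replicate 2, YAPC-iEV replicate 3, YAPC-iGLI2 replicate 2 or YAPC-iGLI2 replicate 3, and 13 without YAPC-iGLI2 replicate 1. Among genes not called, those with the highest mean were MOB1A, an adaptor of LATS (91.3 ± 5.61 and 98.3 ± 5.63 FPKM), MAP4K4 (52.4 ± 1.11 and 48.0 ± 1.13), CSNK1D (44.3 ± 1.66 and 42.8 ± 5.40) and FBXW11 (30.1 ± 1.39 and 34.0 ± 2.85; SD, n = 3). The core kinases, named here for their role after their values were seen, were also not called. STK3 (MST2) measured 15.2 ± 0.364 and 15.3 ± 0.882 FPKM, with a 95% interval of the log2 difference from −0.15 to 0.16. LATS1 measured 9.99 ± 0.341 and 9.63 ± 0.276 FPKM, with an interval from −0.18 to 0.09, while its paralog LATS2 fell by 0.74. STK4 (MST1) measured 10.5 ± 0.788 and 9.51 ± 0.880 FPKM, with an interval from −0.35 to 0.08. MAP4K1, FAT4 and DCHS1 were below the filter.

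A list of 17 other genes commonly given as YAP/TAZ targets also held calls in both directions. Of the 16 tested, 3 were higher and 7 were lower, or 62.5% called in either direction against 21.9% of all genes tested. The median difference was −0.23 against −0.01. This list too was chosen with earlier results of these data known, so its share is descriptive. NT5E, the ecto-enzyme CD73 that makes adenosine, measured 71.4, 75.8 and 77.1 FPKM in YAPC-iEV and 149, 154 and 152 FPKM in YAPC-iGLI2. It rose by 1.01 on the log2 scale (SE 0.06, limma adjusted p = 3.51e-04) with tight arms. F3, tissue factor, went from 29.6 ± 1.85 to 36.5 ± 1.25 FPKM and GADD45A, a stress-response gene, from 22.3 ± 1.66 to 32.2 ± 5.29 FPKM (SD, n = 3), with differences of 0.29 and 0.50 (limma adjusted p = 0.0292 and 0.0460). AXL, a receptor tyrosine kinase, measured 11.5, 14.2 and 14.3 FPKM in YAPC-iEV and 6.84, 7.10 and 6.39 FPKM in YAPC-iGLI2 and fell by 0.88 (SE 0.10, limma adjusted p = 0.00255). TGFB2, a TGF-beta ligand, fell by 0.58 from 4.64 ± 0.308 to 2.77 ± 0.224 FPKM (SD, n = 3, limma adjusted p = 0.00499). FOXF2, a forkhead factor, and ARHGEF17 fell by 0.37 and 0.40. CRIM1, FJX1, ASAP1 and IGFBP3 were the highest expressed of those not called, with differences of −0.01, −0.25, 0.02 and −0.21.

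NT5E, AXL and TGFB2 were the 3 of the 10 called genes that still passed whichever library was omitted. The count fell from 10 to 4 without YAPC-iEV replicate 2, to 4 without YAPC-iEV replicate 3, to 3 without YAPC-iGLI2 replicate 2 and to 5 without YAPC-iGLI2 replicate 3. With small RNA genes left out and the libraries rescaled, 3 were higher and 5 were lower.

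**Figure D4:**
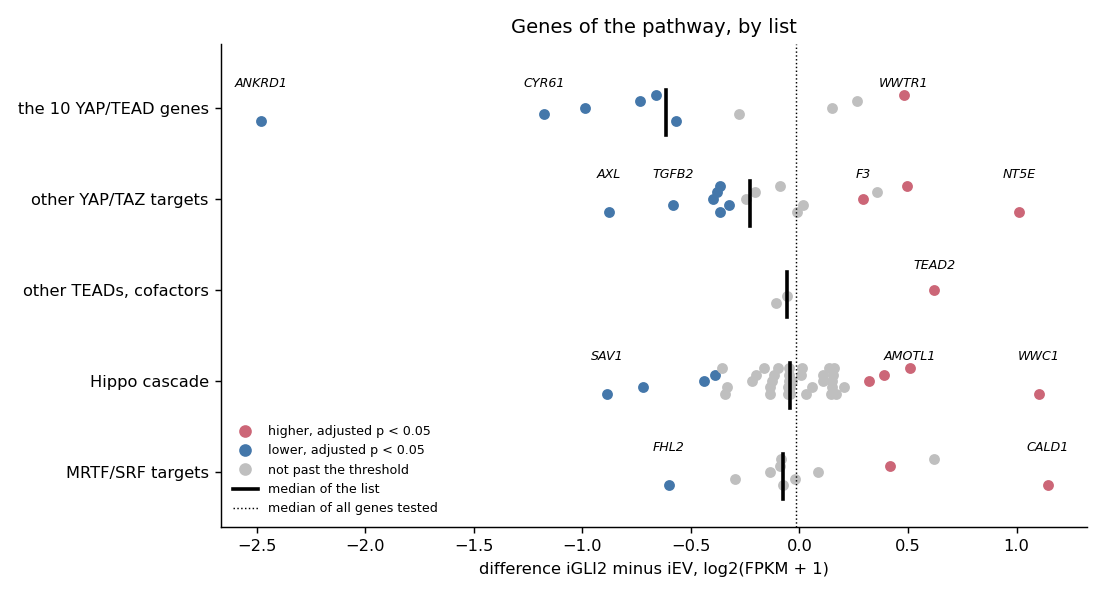
Difference between the arms on the log2(FPKM + 1) scale (YAPC-iGLI2 minus YAPC-iEV) for each tested gene of 5 lists, red and blue for genes called higher and lower by limma and grey for the rest; a bar marks the median of a list and the dotted line that of all 12493 genes tested. Of the 10 genes reported here 6 are blue and 1 is red, and the Hippo cascade genes are spread around the dotted line with 4 in each colour.

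Of 6 paralogs of CTGF, CYR61 and ANKRD1, 2 passed the filter and were tested. NOV (CCN3) measured 1.79, 0.840 and 0.859 FPKM in YAPC-iEV and 4.27, 3.27 and 3.39 FPKM in YAPC-iGLI2. It rose 3.13-fold from 1.16 ± 0.544 to 3.64 ± 0.543 FPKM (SD, n = 3), opposite in direction to CYR61 and at low levels. The difference on the log2(FPKM + 1) scale was 1.12 (SE 0.19, limma adjusted p = 0.0113). The call did not hold without YAPC-iEV replicate 3 (limma adjusted p = 0.0509), which left 0 in the list. WISP3 (CCN6) measured 1.24 ± 0.182 and 1.06 ± 0.282 FPKM (SD, n = 3) with an interval of the log2 difference from −0.46 to 0.20. Below the filter, ANKRD23 was listed at 0.670 to 0.841 FPKM in YAPC-iEV and 0.687 to 1.01 FPKM in YAPC-iGLI2. ANKRD2 was listed at 0.235, 0.455 and 0.367 FPKM in YAPC-iEV and 0.0578, 0.0745 and 0.0808 FPKM in YAPC-iGLI2, with no overlap.

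CTGF, CYR61 and ANKRD1 also answer to serum response factor (SRF) and its coactivator MRTF, which sense actin. Of 14 MRTF/SRF targets 11 were tested, and 2 were higher and 1 was lower, or 27.3%, near the 21.9% of all genes tested, with a median difference of −0.07. CALD1, caldesmon, measured 9.78, 10.7 and 10.8 FPKM in YAPC-iEV and 19.1, 27.4 and 27.3 FPKM in YAPC-iGLI2 and rose by 1.15 (SE 0.15, limma adjusted p = 0.00421). FHL2, a LIM-only protein, fell from 60.8 ± 2.43 to 39.9 ± 4.76 FPKM (SD, n = 3), a difference of −0.60 (limma adjusted p = 0.0103). TPM1, a tropomyosin, was higher by 0.41 at the edge of the threshold (limma adjusted p = 0.0494), and it missed it in 9 of 15 alternatives. Filamin A (FLNA) had the highest mean of those not called, at 148 ± 12.2 and 232 ± 57.2 FPKM (SD, n = 3, difference 0.62, limma adjusted p = 0.0752). The arms of FLNA did not overlap, and it passed under quantile normalization (limma adjusted p = 0.0401), with small RNA genes left out (0.0181), with the replicate number as a block (0.0284) and without YAPC-iGLI2 replicate 1 (0.00326). Next in mean level were CNN2, VCL and SRF with differences of 0.09, −0.02 and −0.13. The count of 3 became 1 without YAPC-iEV replicate 2, where CALD1 kept its call, and 5 without YAPC-iGLI2 replicate 1.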

How the data were processed

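The deposited table held 1 FPKM value per gene for each of 6 libraries. Per the labels, TopHat2, Cuffdiff 2.1.1 and hg19 were used, and the study's methods add read trimming with Trimmomatic. That the values are FPKM made by the authors was inferred from the values and tools, since the header does not state it. Fragment counts and depth are unknown, so no count model was fitted and no detection limit given. Of 27024 entries, 1252 off the primary chromosomes and 330 lower duplicates of a name were dropped, leaving 25442 genes. 0 value columns lacked a sample.

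Groups came from the plasmid and GLI2 labels. The 3 YAPC-iGLI2 libraries were compared with the 3 YAPC-iEV libraries on log2(FPKM + 1) with limma 3.58.1 (R 4.3.3, intensity trend, no replicate term) over the 12493 genes that averaged 1 FPKM or more. P-values were adjusted by Benjamini-Hochberg over all of them, with a threshold of 0.05, and are two-sided. Cuffdiff, the study's own test, could not be run on these values, and an exact permutation test of 3 against 3 libraries cannot go below 0.1. The fit was tested on simulated data. Loci are those of the table, 1-based, with strand and identifier from GENCODE v44lift37. Promoter windows are RefSeq's.

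All 10 genes were named. From each wider list were named the called genes with the smallest p, at most 4 per direction, and up to 4 uncalled genes with the highest mean. The members and the lists, which were compiled from general knowledge, were chosen with earlier results of these data known. Alternatives were pseudocount 0.1, no filter, a mean of at least 5 FPKM, upper-quartile and quantile scaling, small RNA genes left out, the replicate number or library code digit as a term, no intensity trend, and each library left out. Summaries and figures were made with Python 3.11.15, pandas 2.3.3 and matplotlib 3.10.9.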

Additional observations from a re-analysis of the deposited data

How the results depend on the processing

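No gene of the 10 changed direction under any of the 15 alternatives, and TEAD4 and LATS2 dropped out of the test at a mean of at least 5 FPKM. The number of the 10 called lower was 6, and 4 to 7 with 1 library left out. The number called higher was 1, and 0 to 1 with 1 library left out. Over all genes tested 2742 were called, 1223 to 3753 with 1 library left out, the lowest without YAPC-iEV replicate 2 and the highest without YAPC-iGLI2 replicate 1. With 1 library left out the counts were 5 to 13 for the Hippo cascade list (8 with all libraries), 0 to 1 for the other TEADs and cofactors (1), 3 to 9 for the other YAP/TAZ targets (10), 0 to 1 for the paralogs (1) and 1 to 5 for the MRTF/SRF targets (3). Without a filter on low values the TEAD and cofactor list had 2 calls and the paralog list 2, because VGLL1 and ANKRD2 entered the test, and at a mean of at least 5 FPKM the paralog list had 0. Apart from fewer samples or genes tested, the cause of these changes was not tested.

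The arms share replicate numbers in the labels. With the replicate block 2 of the 10 genes were called higher, the second being CTGF (limma adjusted p = 0.0320), the MRTF/SRF list had 5 calls, and 3928 genes were called in all. Deviations from the arm means correlated across genes at 0.204, 0.0919 and 0.0276 for replicates 1, 2 and 3, and YAPC-iEV replicate 2 correlated better with YAPC-iGLI2 replicate 3 (0.117) than with its own number. With 2 of these correlations below 0.1, and no label stating what a shared number means, the numbers were not taken to pair the libraries. The depth is unknown and limits most the genes near 1 FPKM.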
